A study of Rattus norvegicus with 32 samples.

Results

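Myeloid C-type lectin receptors are pattern recognition and uptake receptors of macrophages and dendritic cells, and 5 of them were followed here across tissues of Csf1r-deficient rats: Clec4a1, Clec4a3, Clec4m, Clec9a and Ly75. The members are the probe sets whose single gene symbol is one of these names. Each symbol had 1 probe set, so 5 of the 14824 probe sets with 1 symbol are described. Clec4a1, Clec4a3 and Clec4m were taken as the macrophage lectins, and Clec9a and Ly75 as the dendritic cell lectins. The names are those of the platform annotation, and RefSeq lists Dcir4 as a synonym of Clec4a1, Dcir3 of Clec4a3 and Cd209b of Clec4m.

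Tissue RNA was hybridised to whole-transcript rat gene arrays, 32 in all. Adult female rats of DA/SD background carried no disrupted Csf1r allele (Csf1r +/+, WT), 1 disrupted allele (Csf1r +/-, HET) or no intact allele (Csf1r -/-, KO). The disrupted allele holds an EGFP and PGK-Neo cassette and was made in DA rat embryonic stem cells of 1 targeted clone, and it is present in every cell of the animal. For each genotype there were 2 arrays of spleen and 2 under each of 4 other labels, namely pituitary gland, hippocampus, striatum and olfactory bulbs, and the tissues were not perfused, so blood remained in them. Bone marrow-derived macrophages (BMDM), grown from WT male DA rats in CSF1, had 2 arrays numbered 2 and 3. The 8 spleen and BMDM arrays and the 24 arrays of the other tissues shared almost no exact values across sets, as separate normalisation would leave them, and levels were therefore compared only within each set.

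The receptors share a carbohydrate-recognition fold but differ in signal and in the cells that carry them. Clec4a1 and Clec4a3 belong to the DCIR family, which is encoded by a cluster of neighbouring genes, and in mouse the inhibitory founder of that family recruits tyrosine phosphatases while activating relatives pair with the adaptor FcRγ, the product of Fcer1g. Clec4m is a relative of DC-SIGN, and the mouse protein Cd209b (SIGN-R1) takes up microbial polysaccharide on macrophages of the splenic marginal zone. Clec9a (DNGR-1) marks cross-presenting dendritic cells and binds actin exposed on dead cells, whereas Ly75 (DEC-205) is an endocytic receptor of dendritic cells that is also made by the cortical epithelium of the thymus. CSF1R is the receptor of the macrophage growth factors CSF1 and IL-34, while dendritic cells depend more on the receptor Flt3.

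The RefSeq annotation (GRCr8) places Clec4a1 beside Clec4a3 on chromosome 4, followed by Clec4a2, Clec4a and Clec4b2. Clec9a lies on the same chromosome between Clec1b and Clec1a, Clec4m on chromosome 12 between Cd209d and Cd209c, and Ly75 on chromosome 3 between Cd302 and Pla2r1. The sequences around the start sites of Clec4a1, Clec4a3 and Ly75 are shown because Clec4a1 and Clec4a3 passed as lower in KO brain and Ly75 did not. Each run holds 250 bases before and 50 after the RefSeq start in GRCr8, read 5′ to 3′ on the strand of the gene, with matches to the motifs searched in capitals.
Clec4a1, chr4:157845561-157845860, plus strand: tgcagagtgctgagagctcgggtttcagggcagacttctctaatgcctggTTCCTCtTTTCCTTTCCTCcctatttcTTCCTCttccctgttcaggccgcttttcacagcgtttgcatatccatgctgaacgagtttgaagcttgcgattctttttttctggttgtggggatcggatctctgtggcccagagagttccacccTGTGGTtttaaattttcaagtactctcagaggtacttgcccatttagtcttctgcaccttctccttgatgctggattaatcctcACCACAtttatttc
Clec4a3, chr4:157886508-157886807, plus strand: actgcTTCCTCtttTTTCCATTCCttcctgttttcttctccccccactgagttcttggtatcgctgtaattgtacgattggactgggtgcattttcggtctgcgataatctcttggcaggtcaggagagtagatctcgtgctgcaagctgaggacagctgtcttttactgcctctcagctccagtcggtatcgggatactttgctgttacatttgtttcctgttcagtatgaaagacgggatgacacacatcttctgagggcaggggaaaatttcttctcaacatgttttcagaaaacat
Ly75, chr3:65260829-65261128, minus strand: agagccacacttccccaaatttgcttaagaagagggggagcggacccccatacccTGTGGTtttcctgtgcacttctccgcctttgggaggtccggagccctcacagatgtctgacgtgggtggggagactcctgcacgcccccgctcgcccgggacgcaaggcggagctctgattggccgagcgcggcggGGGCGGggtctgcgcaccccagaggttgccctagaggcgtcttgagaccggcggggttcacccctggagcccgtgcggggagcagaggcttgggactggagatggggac
The 5 short motifs were searched on both strands over 33469 promoters of this length, and a match is a description of letters only. The PU.1 core GAGGAA occurred 3 times at Clec4a1 and 1 time at Clec4a3 and was present in 27.6% of all promoters. An ETS-IRF composite, in which GGAA stands 2 bases before GAAA, occurred 1 time in each of the same promoters, overlapping a GAGGAA match at Clec4a1, and was present in 2.94% of all promoters. The RUNX core TGTGGT was found 2 times at Clec4a1 and 1 time at Ly75, with 17.3% of promoters holding it. The GC box GGGCGG was found 1 time, at Ly75, and in 33.1% of promoters. None of the 5 motifs was found in the windows of Clec4m or Clec9a, and TATAAA, present in 14.2% of promoters, was found in none of the 5 windows. GC content was 66.7% at Ly75, a value reached by 13.2% of promoters, and 40.0% to 47.7% at the other members.

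Csf1r itself separated the KO arrays from all WT and HET arrays in every tissue. It did not separate HET from WT on the arrays labelled olfactory bulbs, at 7.79 and 7.59 on HET and 7.63 and 7.74 on WT. In spleen its log2 intensity was 10.37 and 10.18 on the WT arrays, 9.75 and 7.05 on the HET arrays and 4.81 and 3.28 on the KO arrays, and BMDM gave 9.97 and 10.10. Several arrays carried transcripts of a tissue other than that of their label. The mean log2 intensity of 8 thymus genes was 8.62 on spleen HET 2 and 8.77 on spleen KO 2, and it was 3.74 to 4.06 on the remaining 4. On these 2 arrays the mean of 5 B cell genes was 6.71 and 5.45 against 9.73 to 9.96, and that of 3 spleen stroma genes was 4.93 and 5.09 against 8.24 to 8.64. Pancreas genes were high on spleen HET 1, with a mean of 8.08. The arrays labelled olfactory bulbs carried anterior pituitary hormone genes and those labelled pituitary gland carried olfactory bulb genes, so these arrays are called by their labels only. Choroid plexus genes were high on hippocampus WT 2 and KO 2, at 8.89 and 8.86.

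In spleen Clec4m fell to the background in KO rats, and it was the 1 receptor that passed the test. Csf1r, the disrupted gene, did not pass, with a difference of -6.23 (SE 0.504, limma, adjusted p = 0.0774). A gene that did not pass is therefore not shown to be unchanged. Clec4a1 and Clec4a3 had KO intensities of 0.252 and 0.209 of WT, Clec9a of 0.578 and Ly75 of 4.33, of which none passed, and the Ly75 ratio was 1.61 on KO 1 and 7.06 on KO 2, an array with thymus transcripts. An intensity of 20, a log2 value of 4.32, served as the lower limit of measurement. Genes at or above it on at least 1 array of a set were tested, and in the spleen set all 5 members were.

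Clec4m was at 7.71 and 7.84 log2 on the WT spleen arrays, 8.30 and 5.38 on the HET arrays, and 3.55 and 3.65 on the KO arrays. Both WT arrays and both HET arrays lay above the limit and both KO arrays below it, with no overlap between WT and KO. BMDM were also below the limit, at 3.08 and 2.97. The KO mean intensity was 0.0554 of the WT mean, a loss of at least 10.9-fold when the KO arrays are set at the limit. The difference between KO and WT was -4.17 on the log2 scale (SE 0.200, n = 2 per group, limma, adjusted p = 0.0183). Clec4m was the 1 gene of 9507 that passed as lower in KO spleen, a background of 0.0105%, and the background of genes that passed as higher was 0%. Clec4m reached the limit on WT and HET spleen arrays alone. A gene that enters the test this way is favoured to come out lower in KO. At an unadjusted p under 0.05, 468 genes were lower and 160 higher, and the methods' t-test called 0 genes after Benjamini-Hochberg adjustment. The fitted Clec4m difference ran from -4.24 to -4.11 when single arrays were left out. With both KO values below the limit, the size of the loss is not measured. The call was lost without spleen WT 1, without WT 2 and without either BMDM array. Each array of spleen or of the brain set holds RNA of a whole tissue. Fewer cells and less RNA per cell therefore cannot be told apart here or in any comparison that follows. That includes BMDM, a cell culture, since it is compared with whole spleen.

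**Figure D1:**
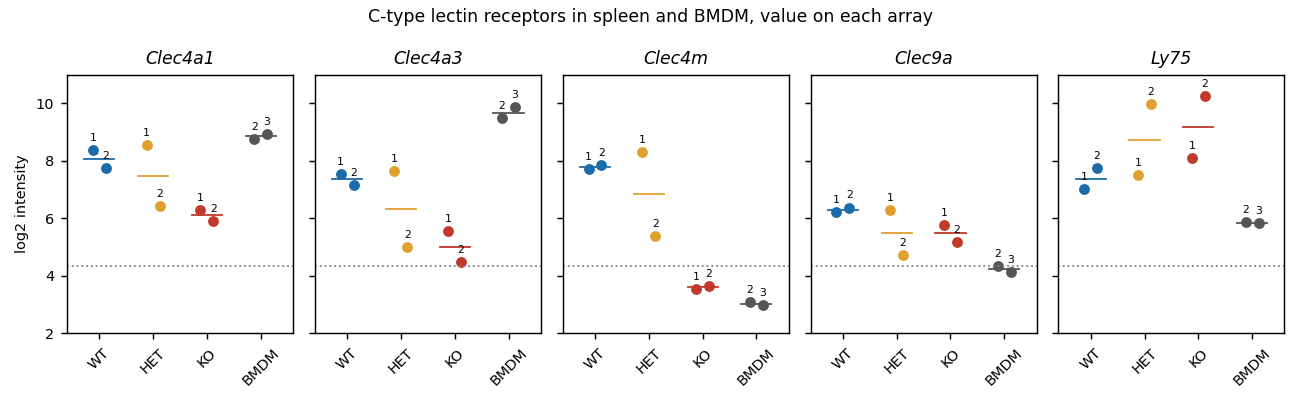
Log2 intensity of each of the 5 receptors on the 8 spleen and BMDM arrays. Each point is 1 array with its replicate number, the bars are the means of 2 arrays, and the dotted line is the limit of 4.32; Clec4m lies above the limit on the 4 WT and HET spleen arrays only, and Ly75 is highest on HET 2 and KO 2.

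Clec4a1 was at 8.37 and 7.76 on the WT spleen arrays, 8.54 and 6.42 on the HET arrays, and 6.30 and 5.89 on the KO arrays. The KO arrays were the lowest, did not reach the WT values and remained well above the limit of measurement. The difference was -1.97 (SE 0.296, limma, adjusted p = 0.379), with a KO intensity of 0.252 of WT. Clec4a3 was at 7.55 and 7.15 on WT, 7.63 and 4.99 on HET, and 5.55 and 4.46 on KO arrays. Here too WT and KO did not overlap, while HET 2 lay between the KO arrays. The difference was -2.34 (SE 0.414, limma, adjusted p = 0.480), with a KO intensity of 0.209 of WT. Of all genes tested, 18.9% had both KO spleen arrays below both WT arrays, so the separation alone does not set these genes apart. Both passed only without spleen KO 1, at an adjusted p of 0.00468 for Clec4a1 and 0.00157 for Clec4a3; then 1240 genes were lower and the KO group was the array with thymus transcripts alone. Without that array, KO 2, the differences were -1.77 and -1.80 (adjusted p = 0.192 and 0.160).

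Clec9a was at 6.21 and 6.37 on the WT spleen arrays, 6.29 and 4.70 on the HET arrays, and 5.77 and 5.18 on the KO arrays. Values lay below WT on both KO arrays and on HET 2, which was the lowest of the 6 spleen arrays. The difference between KO and WT was -0.82 (SE 0.271, limma, adjusted p = 0.718), and the KO intensity was 0.578 of WT. With 1 KO array left in the fit, the Clec9a difference was -0.52 without KO 2 and -1.11 without KO 1. It passed only without KO 1, where KO 2, with thymus transcripts, was the whole KO group. Ly75 differed in the other direction, at 7.03 and 7.73 on the WT arrays, 7.49 and 9.97 on the HET arrays, and 8.11 and 10.25 on the KO arrays. The HET and KO arrays with thymus transcripts, numbered 2, held the highest Ly75 values, while HET 1 lay between the WT arrays and KO 1 just above them. The difference was 1.80 (SE 0.704, limma, adjusted p = 0.745), and both KO arrays lay above both WT arrays, as did those of 19.0% of all genes tested. KO 1 had 1.61 times and KO 2 7.06 times the mean WT intensity. With 1 KO array left in the fit, the Ly75 difference was 0.73 without KO 2 and 2.86 without KO 1. Ly75 too passed only without KO 1, with KO 2 as the whole KO group. The part of the thymus transcripts in these values was not tested.

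**Figure D2:**
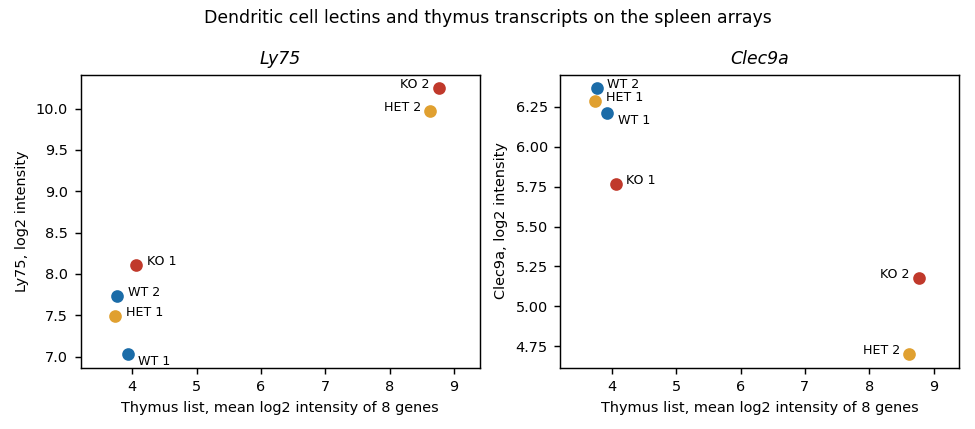
Log2 intensity of Ly75 (left) and Clec9a (right) against the mean log2 intensity of 8 thymus genes on the 6 spleen arrays, coloured by genotype and named by replicate. HET 2 and KO 2, with thymus means of 8.62 and 8.77, hold the highest Ly75 values, 9.97 and 10.25, and the lowest Clec9a values, 4.70 and 5.18.

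Markers of the cells in question were read beside the receptors. Of 16 classical dendritic cell genes, 10 were tested in spleen and 0 passed (limma; 3 lower and 0 higher at an unadjusted p under 0.05, 0 by the methods' t-test after adjustment), with a median difference of -0.78 against 0.02 over all genes. Flt3, the cytokine receptor of dendritic cells, had a difference of -1.38 (adjusted p = 0.717), Xcr1, the chemokine receptor of the Clec9a-bearing subset, of -0.77 (0.740) and the integrin Itgax of -0.79 (0.745). The mean of these 10 genes was 7.63 to 7.74 on the WT arrays and HET 1, 7.48 on KO 1, and 6.32 and 6.40 on HET 2 and KO 2. Clec9a therefore followed the same order of arrays as the dendritic cell list, WT and HET 1 above KO 1 and KO 1 above HET 2 and KO 2, and Ly75 did not. Of 14 marginal zone and red pulp macrophage genes, 10 were tested and 0 passed (8 lower and 0 higher at an unadjusted p under 0.05, 0 by the methods' t-test after adjustment), with a median of -2.03. The marginal zone gene Siglec1, a sialic acid-binding receptor, had a difference of -4.64 (limma, adjusted p = 0.165). Il22ra2, a soluble receptor for IL-22, had one of -3.93 (0.0766), and the macrophage lysosomal gene Cd68 one of -1.52 (0.482). The scavenger receptor Marco, named after its value was seen, was the only gene tested from this list with a positive difference, 0.22 (0.886). These differences, like all KO spleen differences fitted on both KO arrays, include KO 2, the array with thymus transcripts and low spleen stroma genes. The part of that array in them was not tested.

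BMDM separated the receptors more widely. Relative to WT spleen, Clec4a3 was higher in cultured macrophages, Clec4m and Clec9a were lower, and Clec4a1 and Ly75 did not pass the test. Tissue, strain, sex and culture differ together in this comparison and cannot be told apart. Clec4a3 was at 9.49 and 9.86 on the BMDM arrays, above all 6 spleen arrays, a difference of 2.33 from WT spleen (SE 0.414, n = 2 per group, limma, adjusted p = 0.00991). It was 1 of the 5 receptors that passed as higher, against 17.9% of all genes tested. This call was lost without BMDM 2 (adjusted p = 0.0504), BMDM 3 (0.0643), spleen WT 1 (0.0595) or spleen WT 2 (0.0751), while the difference stayed between 2.13 and 2.53. Clec4a1 was at 8.77 and 8.92, above every spleen array, and the difference of 0.78 from WT did not pass (SE 0.296, adjusted p = 0.0853). It passed at 0.0379 without either KO spleen array.

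The receptors that passed as lower in BMDM were Clec4m and Clec9a, 2 of 5 against 24.5% of all genes tested. Both reached the limit of measurement on spleen arrays only, which favours a lower result in BMDM. Their fitted differences include values below it, so their sizes are not measured. Clec4m had a difference of -4.75 (SE 0.200, adjusted p = 0.000583), at least 10.9-fold at the limit of measurement. Clec9a was at 4.32 and 4.13, just under the limit on both BMDM arrays, a difference of -2.07 (SE 0.271, adjusted p = 0.00450) and at least 3.92-fold lower than in WT spleen. Ly75 was detected in BMDM, at 5.85 and 5.82, below all 6 spleen arrays, and its difference of -1.55 from WT did not pass (SE 0.704, adjusted p = 0.130). Without either KO spleen array it passed at 0.00336. Of the 10 dendritic cell genes tested, 4 were lower in BMDM (Irf8, Flt3, Xcr1 and Ccr7) and 1, Itgax, was higher, with Irf8, a transcription factor of the Clec9a-bearing lineage, at -4.30 and Itgax at 2.43. The median over these 10 genes was -1.88 against -0.20 over all genes.

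Other C-type lectins gave a background for the 5. Of 31 listed genes, 18 were tested in the spleen set. In BMDM against WT spleen, 9 were higher and 3 lower, with a median of 1.14. Of all genes tested, 17.9% were higher and 24.5% lower. The largest increases were those of Clec5a, a DAP12-coupled receptor, at 6.54 (adjusted p = 0.000583), Clec12a, an inhibitory receptor, at 4.08 (0.00221), the oxidised LDL receptor Olr1 at 4.05 (0.00105) and Clec4e (Mincle), which binds mycobacterial glycolipid, at 4.02 (0.00554). The 3 that were lower, named after their values were seen, were Mrc2 (-3.60), Clec1a (-2.02) and Clec2d (-1.11). Clec4a2 and Clec4a, the next genes in the chromosome 4 cluster, were also named after their values were seen, and they were higher by 3.02 and 2.18 (adjusted p = 0.00190 and 0.00287), beside 0.06 (0.944) for Clec4b2, the gene after them.

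In KO against WT spleen, 0 of the 18 other lectins passed (limma; 3 lower and 0 higher at an unadjusted p under 0.05, 0 by the methods' t-test after adjustment). The difference was negative for 16 of them, with a median of -0.65 beside 0.02 over all genes. The smallest unadjusted p belonged to Clec4a (-1.08, SE 0.236, adjusted p = 0.600), Clec4a2 (-1.02, SE 0.278, adjusted p = 0.691) and Clec4d (-1.38, SE 0.532, adjusted p = 0.745). Clec4b2, next to Clec4a in the cluster, had a difference of -0.34, and none of the 5 cluster genes tested passed. Over the arrays, the mean of the 18 genes was 5.0 to 5.17 on the WT arrays and HET 1, 4.94 on KO 1, 4.12 on HET 2 and 3.96 on KO 2.

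**Figure D3:**
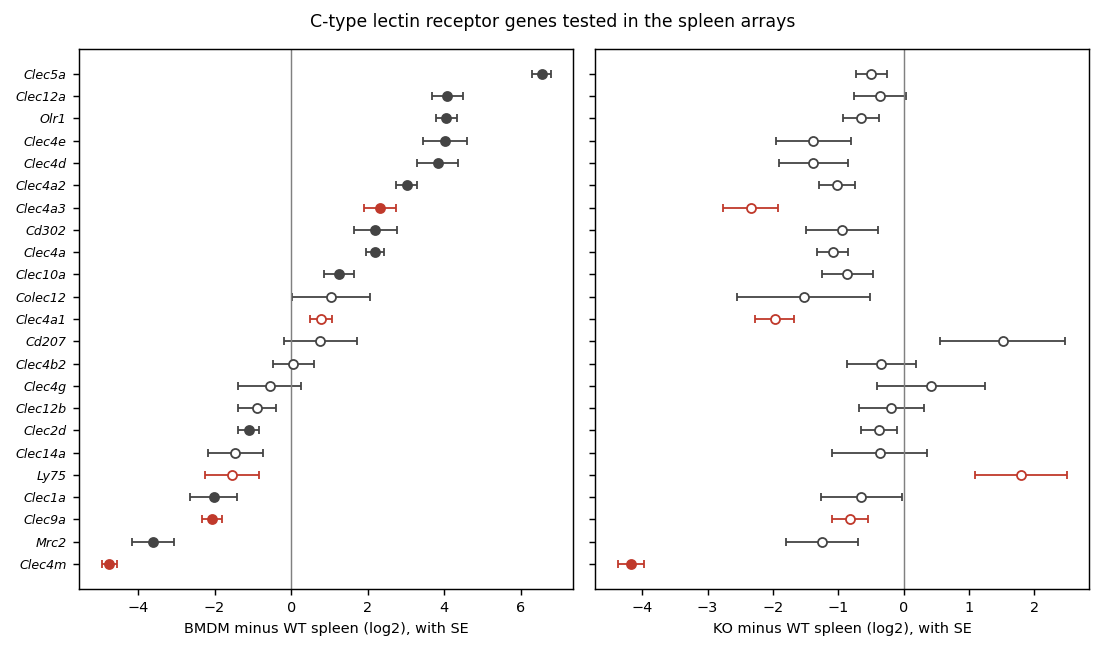
Log2 differences with their standard errors for the 5 receptors and 18 other C-type lectin genes tested in the spleen set, BMDM minus WT spleen on the left and KO minus WT spleen on the right. The 5 receptors described are in red, and filled points passed an adjusted p of 0.05; Clec4m is the lowest on both sides, and Clec4a3 and Clec4a1 are positive in BMDM and negative in KO spleen.

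In the brain and pituitary arrays, Clec4a1 was above the limit of measurement on most WT and HET arrays and below it on all KO arrays. Clec4a3 also passed the test as lower in KO but lay close to or below the limit throughout, Ly75 did not pass, and Clec4m and Clec9a were not measurable. The first comparison used the mean over the 4 regions for each genotype and replicate number, 6 values in all, and 10663 genes. Clec4a1 and Clec4a3 passed the limit of measurement only through WT and HET arrays, and Clec4a1 reached it on 6 of 8 WT, 6 of 8 HET and 0 of 8 KO arrays. Clec4a3 reached it on 2 of 8 WT, 2 of 8 HET and 0 of 8 KO arrays. A gene that enters the test through its WT and HET arrays alone is favoured to come out lower in KO, and the fitted differences of both include values below the limit, so that their sizes are not measured. The methods give 2 rats per genotype, so the arrays of the 4 regions share animals, which the labels do not identify. The fits over 24 arrays treat the arrays as independent, so their p-values are approximate, and the direction of the error was not examined. Replicate numbers are not tied to rats, so the 2 means of a genotype in the first comparison may share animals too. The p-values of that comparison would then be too small.

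Clec4a1 was at 4.09 and 4.77 on the hippocampus WT arrays, 4.37 and 4.28 on HET, and 2.73 and 2.81 on KO arrays. In striatum it was at 4.45 and 4.06 on WT, 4.72 and 4.22 on HET, and 3.25 and 3.05 on KO arrays. WT and HET overlapped in both regions and stood apart from KO. Among all genes tested, both KO arrays lay below both WT arrays for 23.5% in hippocampus, 14.6% in striatum, 19.2% under the olfactory bulbs label and 25% under the pituitary gland label. On the arrays labelled olfactory bulbs Clec4a1 was at 5.43 and 5.64 on WT, 5.59 and 5.78 on HET, and 2.57 and 2.12 on KO arrays, and on those labelled pituitary gland at 5.52 and 5.40 on WT, 4.95 and 4.96 on HET, and 2.82 and 2.84 on KO arrays. The KO arrays were again lowest, and on the arrays labelled pituitary gland both HET values lay below both WT values, a difference that was not tested by region. Averaged over regions, KO differed from WT by -2.15 (SE 0.101, n = 2 per group, limma, adjusted p = 7.68e-05).

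Clec4a3 was at 2.95 and 3.09 on the hippocampus WT arrays, 2.86 and 2.95 on HET, and 2.06 and 1.88 on KO arrays. In striatum the values were 3.01 and 2.90 on WT, 3.68 and 2.79 on HET, and 2.50 and 2.41 on KO arrays. All of these lay below the limit, so no fold is given, although KO was the lowest in both regions. On the arrays labelled olfactory bulbs Clec4a3 was at 4.02 and 4.43 on WT, 4.52 and 4.48 on HET, and 2.55 and 2.29 on KO arrays, and on those labelled pituitary gland at 4.37 and 3.92 on WT, 3.84 and 4.0 on HET, and 2.32 and 1.99 on KO arrays. The WT and HET arrays of these 2 labels lay at or near the limit and the KO arrays well below it. The averaged difference was -1.34 (SE 0.113, limma, adjusted p = 0.00137). In all, 1.08% of genes tested passed as lower in KO and 0.0844% as higher, and the 2 receptors of 5 that passed, Clec4a1 and Clec4a3, were both lower. Neither passed by the methods' t-test after adjustment (0.424 and 0.574), by which 1 gene was called.

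**Figure D4:**
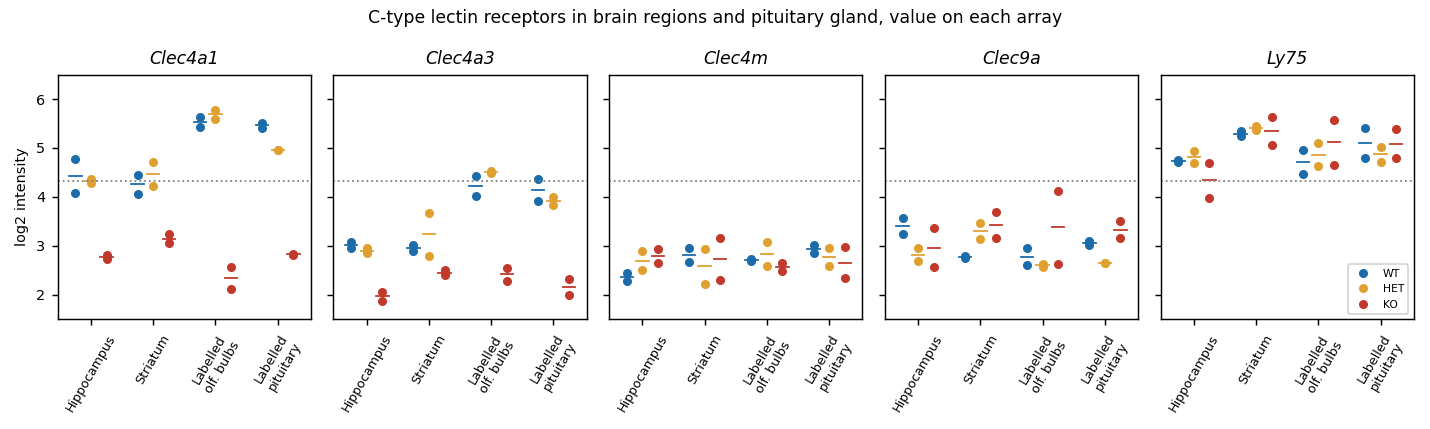
Log2 intensity of each of the 5 receptors on the 24 arrays of the brain regions and pituitary gland by label and genotype. Each point is 1 array, the bars are the means of 2 arrays, and the dotted line is the limit of 4.32; KO arrays are the lowest for Clec4a1 and Clec4a3 under all 4 labels, Clec4m and Clec9a stay below the limit throughout, and Ly75 lies above it on 23 of 24 arrays.

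The fitted Clec4a1 difference, with every KO value below the limit, was -1.66 in hippocampus (SE 0.222, limma, adjusted p = 0.000731), -1.10 in striatum (adjusted p = 0.0245), -3.20 for the olfactory bulbs label (adjusted p = 1.03e-06) and -2.63 for the pituitary gland label (adjusted p = 2.59e-06), with the same SE. Set at the limit of measurement, the losses were at least 1.08-fold in hippocampus, where 1 of 2 WT arrays was above it, 2.32-fold for the olfactory bulbs label and 2.20-fold for the pituitary gland label, and no bound could be given for striatum. Across all genes, 0.6% passed as lower in hippocampus, 0.628% in striatum, 1.05% for the olfactory bulbs label and 0.928% for the pituitary gland label. The striatum call was lost without striatum KO 1 (adjusted p = 0.103), KO 2 (0.278) or WT 1 (0.323). The fitted differences of the 4 regions were compared by a moderated F of 18.1 on 3 degrees of freedom (adjusted p = 0.0202), a test that 0.15% of genes passed. A difference in the size of the loss cannot be read from this test, since KO values were below the limit under every label and the WT values ranged from 4.06 in striatum to 5.64 on the arrays labelled olfactory bulbs. That call was lost without the olfactory bulbs arrays KO 2 (0.0887) or WT 1 (0.0783), the pituitary gland arrays WT 1 (0.0591) or WT 2 (0.0523), or the striatum arrays KO 1 (0.0785), KO 2 (0.0526) or WT 2 (0.0624). A further fit left out 8 arrays of the brain set flagged for genes of an added tissue. These were hippocampus WT 2 and KO 2, striatum WT 2, KO 1 and HET 2, and pituitary gland KO 2, HET 1 and HET 2. The flagging genes are given here for the hippocampus arrays only. All arrays labelled olfactory bulbs and the other arrays labelled pituitary gland stayed in. The difference between regions did not pass in this fit. Clec4a1 then differed by -1.35 in hippocampus (adjusted p = 0.0956) and -1.40 in striatum (0.106), which did not pass, and by -3.20 (0.000203) and -2.64 (0.00109) under the olfactory bulbs and pituitary gland labels, which did.

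Clec4a3 passed on the arrays labelled olfactory bulbs (-1.81, SE 0.238, limma, adjusted p = 0.000529) and pituitary gland (-1.99, adjusted p = 0.000119). It did not pass in hippocampus (-1.05, adjusted p = 0.0695) or striatum (-0.50, adjusted p = 0.739), where its WT arrays were below the limit. In hippocampus the adjusted p was 0.00919 when either striatum HET array was left out of the shared fit. The differences of Clec4a3 between regions did not pass (F = 8.41, adjusted p = 0.174).

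Ly75 was at 4.75 and 4.71 on the hippocampus WT arrays and 4.70 and 3.98 on the KO arrays. In striatum it was at 5.24 and 5.35 on WT and 5.07 and 5.63 on KO arrays. KO 2 of hippocampus was the 1 array below the limit, and the striatum KO arrays lay on either side of WT. On the arrays labelled olfactory bulbs Ly75 was at 4.47 and 4.95 on WT and 5.57 and 4.66 on KO arrays, and on those labelled pituitary gland at 5.40 and 4.79 on WT and 4.79 and 5.38 on KO arrays. WT and KO overlapped under 3 of the 4 labels, and HET values ranged from 4.63 to 5.45. The averaged difference was 0.01 (SE 0.111, limma, adjusted p = 0.991), and by region it ran from -0.39 in hippocampus to 0.41 on the arrays labelled olfactory bulbs, none past the threshold (adjusted p = 0.629 to 1.00). Thymus genes were not high on any of the 24 arrays, with means of 4.04 to 4.49 over the 4 tested.

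Clec4m lay between 2.23 and 3.16 and Clec9a between 2.57 and 4.12 on all 24 arrays, below the limit throughout, so neither entered the test. Without a filter on low values their averaged KO differences were -0.02 (SE 0.158, adjusted p = 0.992) and 0.27 (SE 0.171, adjusted p = 0.780), and any change in them was not detectable at these intensities. The highest Clec9a value, 4.12, was that of the array labelled olfactory bulbs KO 1. For 9 dendritic cell genes tested in the same arrays 0 passed (limma; 2 lower and 0 higher at an unadjusted p under 0.05, 0 by the methods' t-test after adjustment), and the median difference was -0.16. Irf8, which microglia also express, had the smallest p at -0.72 (adjusted p = 0.125).

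**Figure D5:**
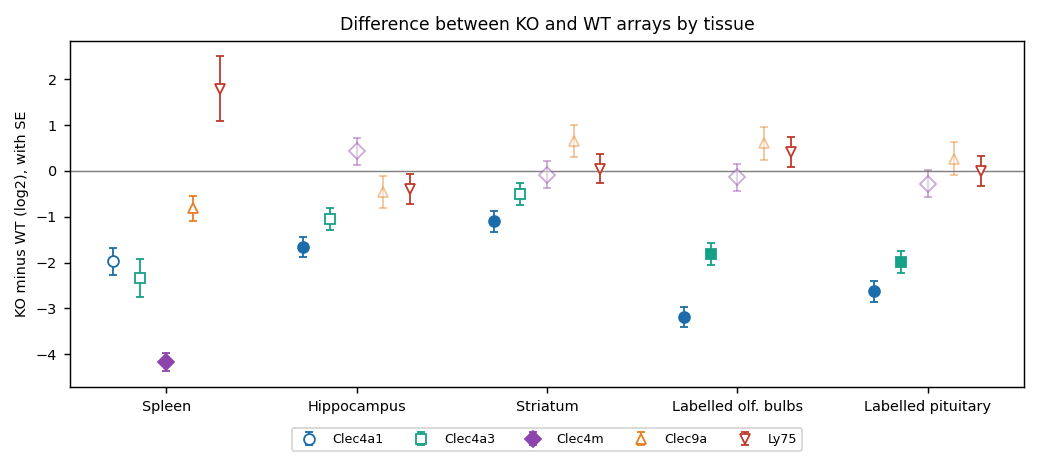
KO minus WT difference on the log2 scale with its standard error for each receptor in spleen and under the 4 labels of the brain set. Filled points passed an adjusted p of 0.05, open points did not, and faint points are Clec4m and Clec9a in the brain set, fitted without a filter because all their values were below the limit; Clec4a1 is negative in every tissue, from -1.10 to -3.20, with all its KO values in the brain set below the limit.

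In the brain set HET was compared with WT for the 3 receptors tested, and none passed. The HET differences averaged over regions were -0.06 for Clec4a1, 0.05 for Clec4a3 and 0.03 for Ly75 (SE 0.101, 0.113 and 0.111, limma, adjusted p = 1.00 for each), and their signs changed with the regions or arrays included. Single labels differed from the average: Clec4a1 was at 0.702 and 0.706 of the WT mean on the HET arrays labelled pituitary gland and at 1.37 and 0.970 on those of striatum. No gene passed in this comparison, with 213 lower and 138 higher at an unadjusted p under 0.05. In spleen, HET 1 had 1.36 times the WT mean of Clec4a1, 1.21 times that of Clec4a3 and 1.44 times that of Clec4m, whereas HET 2 had 0.314, 0.193 and 0.191 of them. The HET spleen arrays thus stood on opposite sides of WT for all 3 macrophage lectins, and HET 2 was also the array with thymus transcripts and the lower Csf1r.

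Cells and adaptors that go with these receptors were read in the brain set from fixed lists. Over all genes tested, 1.08% passed as lower in KO and 0.0844% as higher. All 13 microglia genes tested, Csf1r among them, were lower in KO, with a median of -3.78, and their mean lay between 6.17 and 7.67 on WT arrays and between 2.96 and 3.63 on KO arrays. The fitted differences of Clec4a1 and Clec4a3 are not set against these, since their WT values were too near the limit to show a loss of that size. Of 12 signalling partners of C-type lectins, 10 were tested and 5 were lower in KO brain. Fcer1g, the adaptor FcRγ, fell by 3.77 (adjusted p = 1.03e-05), Tyrobp, the adaptor DAP12, by 3.15 (0.000203), the lipid phosphatase Inpp5d by 1.62 (0.000400) and the tyrosine phosphatase Ptpn6 by 1.07 (0.00218). The fifth was Lyn, a Src family kinase. The 5 that did not pass were Syk (-0.55), Card9 (-0.16), Ptpn11 (-0.09), Bcl10 (-0.03) and Malt1 (0.15). The study places Tyrobp in its cluster of microglia genes, and whether these falls concern lectin signalling was not tested. In spleen 0 of the 10 passed (2 lower and 0 higher at an unadjusted p under 0.05, 0 by the methods' t-test after adjustment), with Tyrobp at -1.76 (adjusted p = 0.571) and Fcer1g at -1.42 (0.637). Of 8 other lectins tested in the brain set, 0 passed (limma; 1 lower and 1 higher at an unadjusted p under 0.05, 0 by the methods' t-test after adjustment), and Clec12a came nearest at -0.81 (adjusted p = 0.0577). The plasmacytoid dendritic cell list held 1 lower gene of 4 tested, Tlr7, at -2.27 (adjusted p = 0.000206), an RNA sensor that microglia also express.

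The genes whose pattern was most like that of each receptor are a description over arrays that share tissues and genotypes. Over the 24 brain and pituitary arrays, the nearest genes to Clec4a1 were C1qc (Pearson r = 0.950), Adgre1 (0.944), Clec4a3 (0.938), C2h1orf162 (0.935) and Cd68 (0.932). Clec4a3 was nearest to Clec4a1, Fcgr3a (0.933), Hcls1 (0.917), Cd68 (0.905) and Fcgr1a (0.895). Ly75 had no gene as near, with Foxo1 at 0.757 and Ntn1, Slc25a43, Ptchd1 and Grk5 after it, down to 0.726. Over the 8 spleen and BMDM arrays the nearest gene to Clec4a1 was Fcer1g (0.980), followed by Tmem37, Lgmn, Lrrc25 and Selenon, and the nearest to Clec4a3 was the macrophage lysosomal gene Cd68 (0.995), followed by Fcgr1a, Ctsb, Adgre1 and Pla2g4a. Clec4m was nearest to Prokr1 (0.992), Tifab (0.990), Il22ra2 (0.982), Kcnj10 and Pdzd2, Clec9a to Ly6e (0.995), Hba-a1, Tle4, Foxs1 and Mycl, and Ly75 to Xk (0.996), Paxip1, Smpd4, Cdca7 and Dnmt3b. Each receptor of the 5 thus had a different set of nearest genes in the spleen set, and Clec4a1 and Clec4a3 had an r of 0.952 with each other there.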

How the data were processed

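RNA was hybridised to Rat Gene 2.1 ST arrays, and the authors normalised the scans by RMA. The deposited table holds linear intensity values for 36685 probe sets on 32 arrays, of which 14824 have 1 gene symbol, 829 several and 21032 none, and 15.1 to 21.7 is the range of median intensity per array. Spleen and BMDM (8 arrays) and the other tissues (24 arrays) were taken as 2 separate normalisation runs, which no source used here states: arrays of the spleen set share 61 to 161 exact values per pair, those of the brain set 8 to 132, and arrays of different sets at most 1. Intensities were turned into log2, the probe set with the highest mean stood for a gene with several, and genes at an intensity of 20 or more on at least 1 array of a set were tested (9507 and 10663). The number of arrays, and not a depth, limits precision.

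Groups were compared with limma 3.58.1 in R 4.3.3 (lmFit, eBayes, two-sided), with Benjamini-Hochberg adjustment over all genes tested and a threshold of 0.05. Spleen used WT, KO and BMDM arrays in 1 fit (6 arrays), the brain comparison 6 means over the 4 regions, and the regional comparison and its F test 24 arrays in 12 groups, taken as independent although the 4 regions share 2 rats per genotype by the study's methods. Labels call the replicates biological but do not tie a replicate number to a rat, so p-values measure only the spread between these samples. The means over regions of a genotype may therefore share animals. Same-numbered spleen arrays, or means over regions, of different genotypes did not deviate together (r from -0.10 to 0.09), and no block was used. The sharing of rats between regions was not examined by these correlations. The fits were tested on simulated data. The receptors, gene lists and tests were chosen with earlier results of these data known. Named genes are the 5 receptors, their 5 nearest genes by Pearson r, Csf1r, and from each list up to 4 genes past the threshold by size or, with none, up to 3 by p. Alternatives were another filter and none, quantile normalisation, the mean of probe sets, other samples in the fit, a trended robust variance, the methods' t-test, a replicate block, and leaving out each array.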

Additional observations from a re-analysis of the deposited data

Results flagged for a closer look

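The fitted KO differences of Clec4a1 passed a test of a difference between the 4 regions (moderated F, adjusted p = 0.0202), which flagged them. The differences from WT were -1.10 in striatum, -1.66 in hippocampus, -2.63 on the arrays labelled pituitary gland and -3.20 on those labelled olfactory bulbs. All KO arrays lay below the limit of measurement, and the regions with the larger differences were those with the higher WT levels. A regional difference in the size of the loss can therefore not be read from this test.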

How the results depend on the processing

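In spleen, the number of receptors that passed as lower in KO (1) was 0 with WT and KO arrays only, with all 8 arrays, against littermates (WT and HET together), by the methods' t-test and with the replicate block (Clec4m adjusted p = 0.907), and 0 to 4 when single arrays were left out. Those higher (0) were 0 to 1. No spleen difference changed sign. In BMDM, the receptors that passed as higher (1) were 0 with all 8 arrays and 0 to 2 without single arrays. In the brain set, the receptors lower in KO (2) were 1 with an intensity filter at 50, where only Clec4a1 was still tested, and 0 by the methods' t-test, and the filter also left 1 under each of the olfactory bulbs and pituitary gland labels. Without the arrays that carried another tissue, hippocampus and striatum (1 each) had 0, and the Clec4a1 adjusted p for a difference between regions was 0.123; a trended robust variance left 0 in striatum. Leaving out single arrays gave 1 to 2 in hippocampus, 0 to 1 in striatum and an adjusted p of 0.00974 to 0.0887 for that difference.

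The small Ly75 difference in KO brain changed sign without the arrays labelled olfactory bulbs (-0.117) and against littermates (-0.00133), and ran from -0.0455 to 0.0738 without single replicates. By region it ran from -0.0487 to 0.865 under the olfactory bulbs label, -0.315 to 0.294 under the pituitary gland label and -0.230 to 0.336 in striatum. For HET brain, the values were 0.0880 for Clec4a1 without the arrays labelled pituitary gland, -0.0212 for Clec4a3 and -0.0113 for Ly75 without those labelled olfactory bulbs, and -0.0320 to 0.137 and -0.0851 to 0.147 without single replicates. The replicate block changed no other call. The causes of these changes were not tested.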
